A study of Mus musculus with 109 samples.

Results

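The genes described here are the gp130 cytokine axis: the ligands Lif, Il6, Il11 and Osm, the receptors Il6ra, Osmr, Lifr and Il6st, the transcription factor Stat3 and its feedback inhibitor Socs3. They were chosen by name as the known parts of this pathway, with earlier results of these data known, and are 10 of the 37315 genes in the count table. Polyadenylated RNA of 109 whole mouse retinas from 64 mice was sequenced after a single intravitreal injection of IL1A, TNF, IL1A+TNF or PBS, to ask how the retina responds to cytokines that harm retinal ganglion cells (RGCs). The injected volume was 2 µL, with IL1A at 0.1 µg/µL and TNF at 0.05 µg/µL. In batch 1, all mice were wild type (WT, C57BL/6J), and 2 days after injection there were 31 PBS, 8 TNF, 9 IL1A and 10 IL1A+TNF retinas. Batch 1 also held 7 PBS and 6 TNF retinas at 14 days, and 6 PBS and 9 TNF retinas at 35 days. Batch 2 was all at 2 days, with 5 PBS and 6 IL1A+TNF retinas of WT mice and 6 of each treatment from mice deficient in Sarm1 (Sarm1KO), the NADase that drives axon degeneration. Every retina had been injected, 45 mice gave both eyes, and for most treated retinas the PBS control was the other eye of the same mouse. No uninjected retina was measured, so a PBS value includes whatever the injection itself does.

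Gp130, encoded by Il6st, is the signal-transducing subunit shared by the receptors of this cytokine family. LIF binds LIFR paired with gp130, oncostatin M (Osm) binds OSMR paired with gp130, and IL6 and IL11 bind their own alpha receptors before gp130 is paired; JAK kinases then phosphorylate STAT3, which enters the nucleus and induces Socs3, whose product binds gp130 and JAK and damps the signal. In the retina, Lif is known to be made by a subset of Müller glia after photoreceptor injury, and STAT3 activity in Müller glia and astrocytes is known to accompany glial reactivity.

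Total counts per retina ran from 30014757 to 45779899 in batch 1 and from 42875980 to 79064488 in batch 2. Levels are given as CPM, counts per 1000000 counts of the retina's total. Sarm1 was at 77.5 to 135 CPM in the WT retinas and at 28.8 to 53.2 CPM in the 12 Sarm1KO retinas, without overlap. Several retinas stood apart. Among the 31 PBS retinas at 2 days, replicate 26 had Il6 at 2.34 CPM against at most 0.399 CPM in the others, and its 10 neutrophil marker genes summed to 96.0 CPM against a group median of 15.4. Sarm1KO IL1A+TNF replicates 4 and 5 had RGC markers summing to 113 and 94.9 CPM, against 329 to 690 CPM in the other 4 retinas of that group. Sarm1KO PBS replicates 1 and 2 had neutrophil markers at 106 and 102 CPM against 5.17 to 16.9 CPM in the other 4. For IL1A+TNF, IL1A and TNF against PBS in batch 1, and for IL1A+TNF in Sarm1KO, counts of calls are given with and without them. The fit that compares the eyes within mice was not repeated without them. In bulk retina, fewer cells of a type and less RNA per cell cannot be told apart.

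The 10 genes lie on 6 chromosomes of mm10 (GRCm38, GENCODE M21 models) and all are protein coding. Lif (chr11:4257557-4272514) and Osm (chr11:4236420-4241026) are neighbours on the + strand, 16530 bases apart, and Osmr (chr15:6813577-6874969, - strand) and Lifr (chr15:7090614-7197489, + strand) lie 215644 bases apart. Stat3 (chr11:100885098-100939540) and Socs3 (chr11:117966079-117970047) are both on the - strand. Il6 is at chr5:30013114-30019981, Il6st at chr13:112464070-112510086, Il6ra at chr3:89864059-89913196 and Il11 at chr7:4772373-4782859. RefSeq promoter windows of GRCm38.p6, 250 bases before to 50 bases after each start, were matched for 9 of the 10 genes. They were searched on both strands for a STAT motif (TTCNNNGAA), an AP-1 motif (TGANTCA), a C/EBP motif (TTGCNNAA) and an NF-kB motif (GGGANTTTC), whose matches could overlap in a window but do not in those shown. Of 32851 promoter windows of the same length, 8.3% held the STAT motif, 7.81% the AP-1 motif, 10.8% the C/EBP motif and 1.11% the NF-kB motif. The 4 windows below are those of the feedback inhibitor, of the receptor whose level fell most clearly with days after PBS, and of the ligands Lif and Il6, each with at least 1 match. They run 5′ to 3′ on the gene's strand, with every motif match in capitals. The windows are Socs3 at chr11:117969317-117969616 (- strand), Osmr at chr15:6874264-6874563 (- strand), Lif at chr11:4257318-4257617 (+ strand) and Il6 at chr5:30012864-30013163 (+ strand).
Socs3: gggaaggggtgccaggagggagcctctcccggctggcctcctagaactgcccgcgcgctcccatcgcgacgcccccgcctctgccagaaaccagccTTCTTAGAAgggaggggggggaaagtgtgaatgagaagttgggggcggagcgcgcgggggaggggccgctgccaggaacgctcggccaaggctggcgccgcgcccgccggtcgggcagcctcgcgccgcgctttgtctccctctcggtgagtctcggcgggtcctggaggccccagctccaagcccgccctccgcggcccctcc
Osmr: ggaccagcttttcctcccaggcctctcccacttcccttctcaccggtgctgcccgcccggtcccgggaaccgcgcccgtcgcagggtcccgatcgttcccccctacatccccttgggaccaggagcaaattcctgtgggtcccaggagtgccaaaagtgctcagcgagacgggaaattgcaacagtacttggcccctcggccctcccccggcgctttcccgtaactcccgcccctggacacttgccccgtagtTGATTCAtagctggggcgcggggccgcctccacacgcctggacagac
Lif: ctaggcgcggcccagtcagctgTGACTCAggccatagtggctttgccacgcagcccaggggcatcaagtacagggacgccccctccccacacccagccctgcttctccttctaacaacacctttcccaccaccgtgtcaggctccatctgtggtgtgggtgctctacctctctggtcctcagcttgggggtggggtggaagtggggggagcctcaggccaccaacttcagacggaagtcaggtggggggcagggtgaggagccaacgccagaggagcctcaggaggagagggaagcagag
Il6: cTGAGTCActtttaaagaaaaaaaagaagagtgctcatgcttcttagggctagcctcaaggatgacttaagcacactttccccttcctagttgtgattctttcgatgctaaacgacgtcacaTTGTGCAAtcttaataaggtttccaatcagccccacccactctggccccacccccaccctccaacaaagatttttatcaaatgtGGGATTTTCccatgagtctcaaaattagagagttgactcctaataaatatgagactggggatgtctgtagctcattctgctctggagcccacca
The Socs3 window held 1 STAT match, and the Il6 window an AP-1, a C/EBP and an NF-kB match. The Osmr and Lif windows held 1 match each to TGANTCA, which allows any middle base, with the letters TGATTCA in Osmr and TGACTCA in Lif. The RefSeq starts of Socs3 and Osmr lie 681 and 656 bases inside the GENCODE models, so these windows are not the regions before the outermost annotated starts. For Il11, the window at chr7:4778092-4778391 held 1 AP-1 match and the window at chr7:4782808-4783107 held 0. No match to the 4 motifs was found in the windows of Il6ra, Il6st, Stat3 and Lifr, which says only that these letters are not in these windows.

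After PBS at 2 days, Stat3, Il6st, Lifr, Socs3 and Osmr had higher median levels per length than the 4 ligands. Il6ra was below Lif and above Il11, Osm and Il6. Per length (CPM per kilobase of exon, RPKM), the median level was highest for Stat3 at 22.5 and Il6st at 20.7, whose ranges of 13.3 to 33.6 and 13.2 to 27.1 overlapped almost wholly. Lifr followed at 14.99 RPKM, Socs3 at 8.02 and Osmr at 3.49. Lif was next at 0.675 RPKM, then Il6ra at 0.216, Il11 at 0.129, Osm at 0.0444 and Il6 at 0.0192. Neighbours in this order overlapped between retinas for every pair. Il6 had no read in 10 of the 31 PBS retinas, Osm none in 3 and Il11 none in 1, so their levels rest on few counts. Genes also differed in how far PBS retinas spread: the highest over the lowest CPM was 17.01 for Lif, 10.6 for Socs3, 4.98 for Il6ra and 3.58 for Osmr, against 2.51 for Stat3, 2.05 for Il6st and 1.47 for Lifr.

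**Figure D1:**
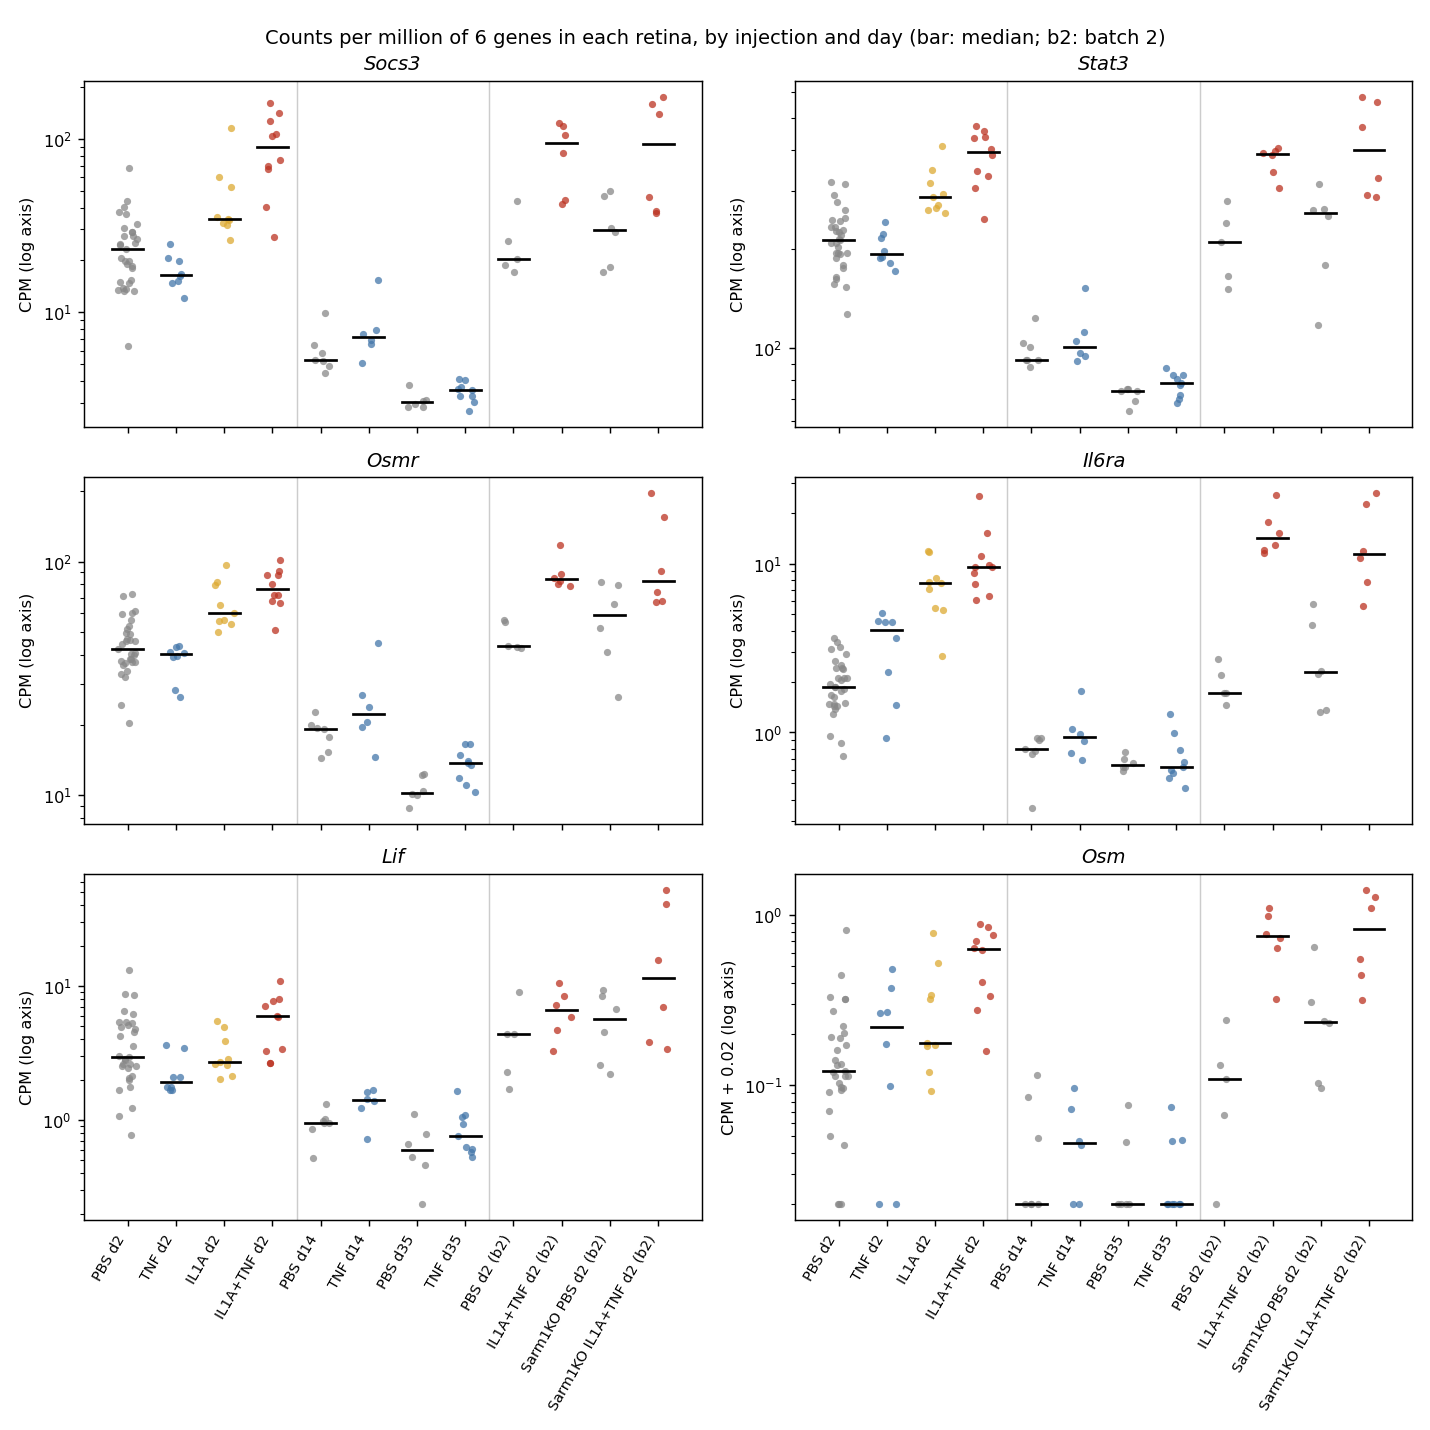
CPM of Socs3, Stat3, Osmr, Il6ra, Lif and Osm in every retina (1 point each) of the 12 groups, on log axes, with Osm shown as CPM + 0.02 because some retinas have none. Socs3 lies at 27.03 to 160 CPM after IL1A+TNF in batch 1 and at 2.82 to 3.82 CPM in PBS retinas at 35 days.

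IL1A+TNF at 2 days raised the listed receptors Il6ra, Osmr, Lifr and Il6st, as well as Stat3, Socs3 and the ligand Osm, in WT retinas. Of the 9 genes that passed the filter on low counts (Il6 did not), 7 were higher and 0 lower than PBS at a false discovery rate (FDR) below 0.05 in a limma-voom fit over all genes, against 50.4% of all 19548 genes called in either direction. The median difference of the 9 genes was 0.74 on the log2 scale, against -0.02 over all genes. IL1A alone raised 5 of the 9, Il6ra, Osmr, Il6st, Stat3 and Socs3, with 21.4% of all genes called. Comparing eyes within mice, with each mouse as a fixed term, only Il6ra of these 5 was called, and Osmr (limma FDR = 0.0577), Il6st (0.459), Stat3 (0.0617) and Socs3 (0.266) were not. That fit holds 7 of the 9 IL1A retinas and includes PBS replicate 26 as the control of 1 of them. It was not run without this retina. TNF alone changed 0 of the 9 by limma (1 of 9 at an unadjusted p below 0.05), with 0.655% of all genes called. Without PBS replicate 26, a choice made after its values had been seen, IL1A+TNF called 8 genes, Lif included, IL1A 6, Osm included, and TNF 0. Shares of all genes called within mice and without this retina are not reported here. All comparisons with PBS at 2 days share the same 31 PBS retinas.

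Lif, a ligand known as a survival factor for photoreceptors, was 0.780 to 13.3 CPM in PBS retinas at 2 days (median 2.94), 2.69 to 10.8 CPM after IL1A+TNF (median 5.93), 2.04 to 5.45 CPM after IL1A (median 2.696) and 1.66 to 3.66 CPM after TNF (median 1.93). The IL1A+TNF retinas lay within the PBS range, and 6 of the 10 were above every IL1A retina. The difference of IL1A+TNF from PBS was 0.54 ± 0.25 (log2, SE) and did not pass (limma FDR = 0.0700), though it was 0.58 with an FDR of 0.0482 without PBS replicate 26. Against TNF retinas it was 1.12 ± 0.39 and passed (limma FDR = 0.0178).

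Osm, a ligand made mainly by neutrophils, macrophages and T cells, was at 0 to 0.798 CPM in PBS retinas (median 0.101), 0.139 to 0.868 CPM after IL1A+TNF (median 0.615), 0.0729 to 0.766 CPM after IL1A (median 0.156) and 0 to 0.465 CPM after TNF (median 0.200). The lowest IL1A+TNF retina was above 19 of 31 PBS retinas, and 2 were above all of them. Osm rose by 1.94 ± 0.37 (log2, SE) after IL1A+TNF (limma FDR = 1.08e-05), while the IL1A difference of 1.06 ± 0.44 did not pass (limma FDR = 0.0768) but was 1.18 with an FDR of 0.0367 without PBS replicate 26. Il11, a ligand with its own alpha receptor, differed by 0.65 ± 0.37 after IL1A+TNF (limma FDR = 0.132), with medians of 0.423 against 0.268 CPM. Il6, the founding member of the family, stayed at or below 0.374 CPM in IL1A+TNF retinas, 0.687 CPM in IL1A retinas and 0.183 CPM in TNF retinas, all under the 2.34 CPM (85 counts) of PBS replicate 26. The lowest IL1A+TNF retina was above 10 of the 31 PBS retinas. The treated eye had more Il6 in 4 of 8 mice after IL1A+TNF, 5 of 7 after IL1A and 5 of 8 after TNF. In batch 2 it did in 5 of 5 WT and 3 of 6 Sarm1KO mice after IL1A+TNF. Over both batches in WT, Il6 had an unadjusted limma p below 0.05 and did not pass.

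Il6ra, the alpha receptor for IL6 found on hepatocytes and many leukocytes, had the largest difference of the 9 genes. It was at 0.731 to 3.64 CPM in PBS retinas (median 1.87) and at 6.08 to 25.1 CPM after IL1A+TNF (median 9.53). Every IL1A+TNF retina was above every PBS retina, which held for 2.59% of all genes and for no other gene of the 10. The rise was 2.27 ± 0.17 (log2, SE, limma FDR = 6.34e-17). After IL1A, Il6ra was at 2.85 to 11.8 CPM (median 7.65), with 8 of 9 retinas above the PBS range, a rise of 1.90 ± 0.19 (limma FDR = 3.76e-12). After TNF it was at 0.923 to 5.06 CPM (median 4.05), with 4 of 8 retinas above the PBS range. That difference, 0.67 ± 0.24, did not pass (limma FDR = 0.295), but without TNF replicate 6, the lowest of the 8, Il6ra was called (0.94, limma FDR = 0.00449), as it also was with edgeR and DESeq2 (FDR = 0.0390 and 0.0392).

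Sums of markers of blood-derived cells and of microglia moved with Il6ra and Osm. The 10 neutrophil markers summed to 2.80 to 130 CPM (median 15.4) in PBS retinas, 121 to 798 CPM (median 192) after IL1A+TNF, 63.4 to 384 CPM (median 158) after IL1A and 3.08 to 48.2 CPM (median 20.7) after TNF. For the 8 monocyte and macrophage markers the sums were 16.2 to 139 CPM (median 55.6), 264 to 851 CPM (median 453), 73.7 to 383 CPM (median 272) and 7.78 to 330 CPM (median 215) in the same order. The 8 microglial markers had median sums of 107, 208, 194 and 153 CPM in that order. After IL1A+TNF, 6 of 8 tested neutrophil markers and 8 of 8 monocyte markers rose, where 50.4% of all genes were called in either direction. Of 8 microglial markers 5 rose and 2 fell. Markers of other retinal cells also moved. Rod markers summed to a median of 41626 CPM after PBS and 22668 CPM after IL1A+TNF, Müller glia markers to 3784 and 3038 CPM, and endothelial and pericyte markers to 444 and 625.1 CPM. The part of all these markers in the differences of Il6ra, Osm, Osmr, Il6st, Stat3 and Socs3 was not tested.

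Osmr, which pairs with gp130 to bind oncostatin M, was at 20.3 to 72.7 CPM in PBS retinas (median 42.3), 50.9 to 102 CPM after IL1A+TNF (median 76.2), 49.96 to 96.7 CPM after IL1A (median 60.3) and 26.4 to 43.4 CPM after TNF (median 40.0). The lowest IL1A+TNF and IL1A retinas were each above 23 of the 31 PBS retinas. Osmr rose by 0.75 ± 0.12 after IL1A+TNF (log2, SE, limma FDR = 3.25e-07) and by 0.56 ± 0.12 after IL1A (limma FDR = 4.91e-04), the latter not called within mice. Il6st, the shared subunit, was at 147 to 301 CPM after PBS (median 229), 242 to 418 CPM after IL1A+TNF (median 363), 224 to 350 CPM after IL1A (median 270) and 189 to 241 CPM after TNF (median 217). Of 10 IL1A+TNF retinas 9 were above the PBS range, a rise of 0.55 ± 0.08 (limma FDR = 8.54e-09), and IL1A gave 0.22 ± 0.08 (limma FDR = 0.0320), not called within mice. Lifr, the partner that binds LIF, moved least. It was at 127 to 186 CPM after PBS (median 162) and 146 to 209 CPM after IL1A+TNF (median 188), a rise of 0.13 ± 0.05 (limma FDR = 0.0155).

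Stat3, the transcription factor of the axis, was at 127 to 320 CPM in PBS retinas (median 214), 248 to 472 CPM after IL1A+TNF (median 394), 258 to 413 CPM after IL1A (median 287) and 172 to 242 CPM after TNF (median 193). Of the IL1A+TNF retinas, 8 of 10 were above the PBS range, and all TNF retinas were within it. Stat3 rose by 0.74 ± 0.09 after IL1A+TNF (log2, SE, limma FDR = 1.40e-09) and by 0.45 ± 0.10 after IL1A (limma FDR = 3.25e-04, not called within mice). Socs3, a target gene of STAT3, was at 6.41 to 67.9 CPM in PBS retinas (median 23.2), 27.03 to 160 CPM after IL1A+TNF (median 89.1), 25.9 to 115 CPM after IL1A (median 34.2) and 12.1 to 24.8 CPM after TNF (median 16.4). The TNF retinas all lay below every IL1A and IL1A+TNF retina. Socs3 rose by 1.77 ± 0.21 after IL1A+TNF (limma FDR = 2.14e-10) and by 0.89 ± 0.23 after IL1A (limma FDR = 0.00232, not called within mice), and TNF gave a difference of -0.34 ± 0.28 (limma FDR = 0.859). These are RNA levels, and STAT3 phosphorylation was not measured.

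**Figure D2:**
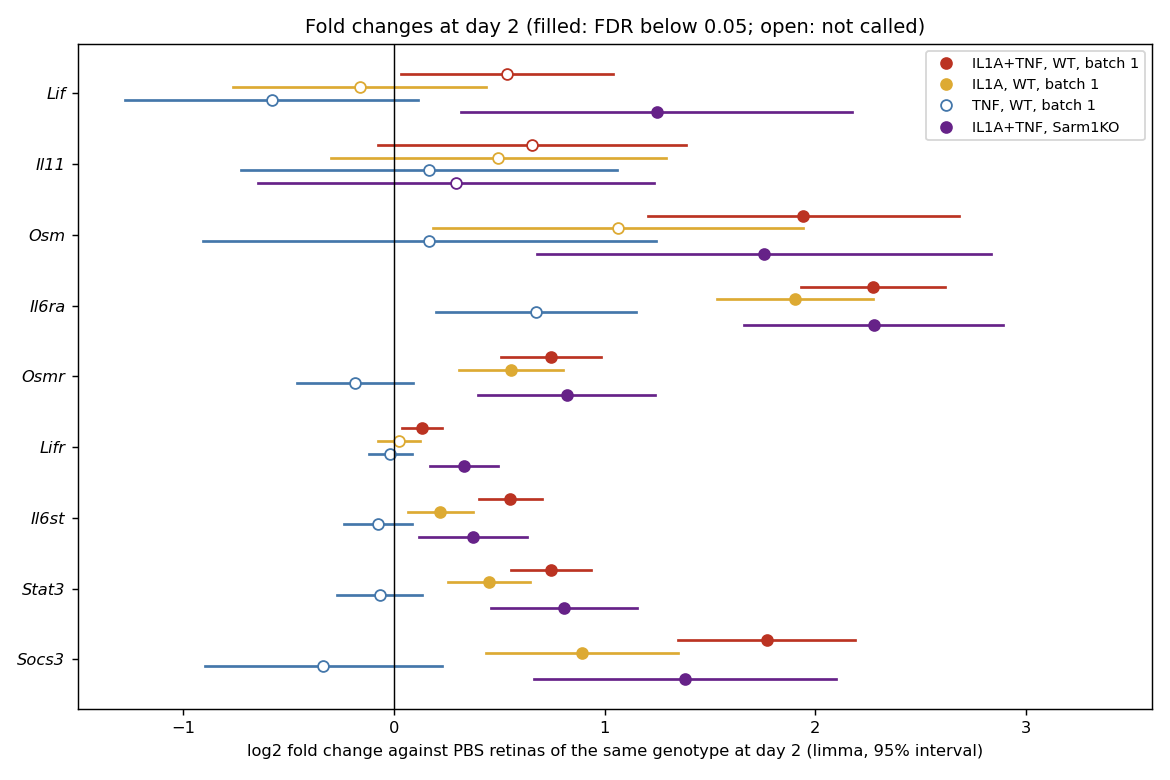
Log2 difference from PBS with its 95% interval for 9 of the genes after IL1A+TNF, IL1A and TNF in WT retinas of batch 1, and after IL1A+TNF in Sarm1KO retinas; filled points have FDR below 0.05. Il6ra lies at 2.27 after IL1A+TNF in WT and at 2.28 in Sarm1KO, and no TNF point is filled.

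The combination was also set against each cytokine. IL1A+TNF retinas were higher than IL1A retinas in 2 of the 9 genes, Il6st by 0.33 ± 0.10 (log2, SE, limma FDR = 0.0176) and Socs3 by 0.88 ± 0.26 (limma FDR = 0.0229), with 10.1% of all genes called. Against TNF retinas, 8 of 9 were higher, all but Il11, with 39% of all genes called. Il6ra, Osmr, Il6st, Stat3 and Socs3 were higher in every IL1A+TNF retina than in every TNF retina, which held for 6.23% of all genes. IL1A retinas were higher than TNF retinas in 5 genes, Il6ra (1.23), Osmr (0.74), Il6st (0.30), Stat3 (0.52) and Socs3 (1.23), with 9.08% of all genes called by limma. The interaction asks whether the combination differs from the sum of the log2 effects of each cytokine. It passed for Il6st (0.41 ± 0.12, limma FDR = 0.0498), with 3.6% of all genes called. The Socs3 value was larger, 1.21 ± 0.39, and did not pass (limma FDR = 0.0622). By edgeR and DESeq2 the interaction was called for 3 genes, Il6st, Lif and Socs3, and with no filter on low counts for 0. Shares of all genes called by these alternatives are not reported here.

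Within mice, the treated eye was higher than the PBS eye for most of these genes after IL1A+TNF, and less uniformly after IL1A or TNF. Of the 8 IL1A+TNF mice of batch 1 with both eyes, the treated eye was higher in all 8 for Il6ra, Osmr, Lifr, Il6st and Stat3, in 7 for Socs3 and Osm, and in 4 for Lif. The mouse whose Socs3 was lower in its treated eye was that of IL1A+TNF replicate 9, by 0.49 on the log2 scale. After IL1A, the treated eye was higher in all 7 mice for Il6ra, in 5 for Osmr and Il6st, in 4 for Stat3 and Socs3 and in 1 for Lif. The IL1A differences of Socs3 within a mouse ran from -0.94 to 2.30 (log2), and the lowest was in the mouse that gave PBS replicate 26. After TNF, 6 of 8 mice had more Il6ra in the treated eye, 5 more Osmr, Stat3 and Socs3, 4 more Lifr and Il6st and 2 more Lif. With each mouse as a fixed term, which compares the eyes within mice, the IL1A comparison called 1 of the 9 genes, Il6ra at 1.93 (limma FDR = 1.1e-05), and Socs3 was at 0.62 (limma FDR = 0.266), while IL1A+TNF called 6 and TNF 0.

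**Figure D3:**
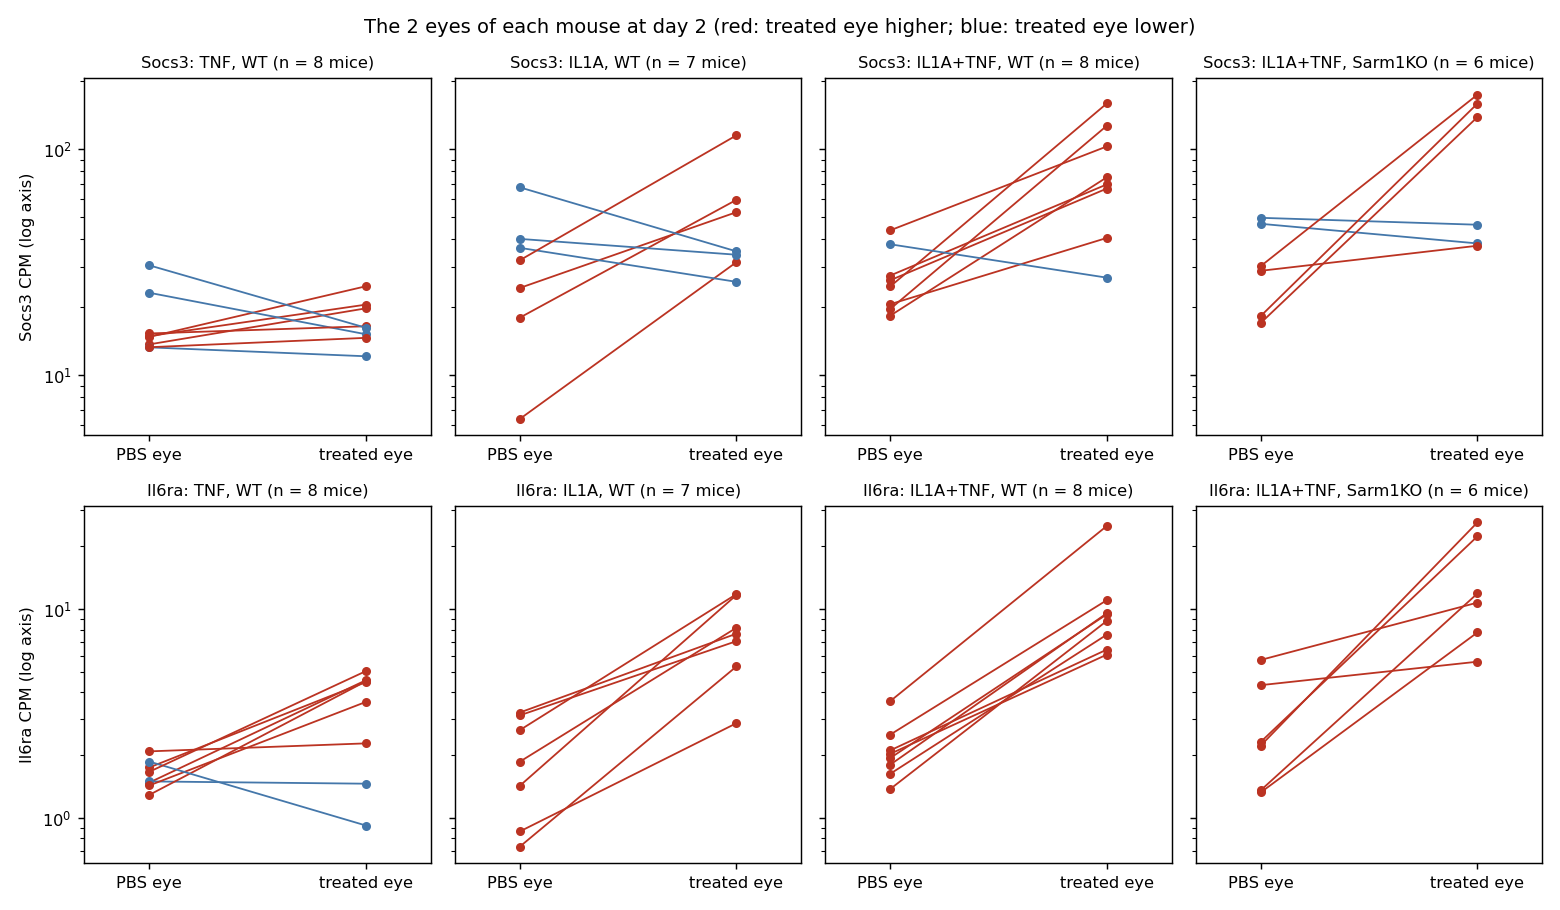
Socs3 and Il6ra in CPM (log axes), with a line from the PBS eye to the treated eye of each mouse, for TNF (8 mice), IL1A (7), IL1A+TNF (8) and IL1A+TNF in Sarm1KO (6). Il6ra rises in all 7 IL1A mice, and Socs3 rises in 4 of them.

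In eyes that received PBS only, most of the axis was higher at 2 days than at later days. Over PBS retinas at 2, 14 and 35 days, 6 of the 8 tested genes were lower later, Lif, Il6ra, Osmr, Il6st, Stat3 and Socs3, with 36.2% of all genes called in the joint limma test over days and a median day difference of -1.47 (log2) for the 8 genes. Il11 and Lifr did not pass. Both eyes of 1 mouse are among the 7 PBS retinas at 14 days and entered this fit as separate retinas, without a mouse block. Single days were compared after the values had been seen. The same 6 genes were lower at 14 than at 2 days (19.2% of all genes called) and at 35 than at 2 days (32.8% called), and by limma 0 of 8 differed between 35 and 14 days (2 of 8 at an unadjusted p below 0.05, 4.25% of all genes called). The other eye of most of these mice received a cytokine, which at 14 and 35 days was TNF only. Among PBS eyes at 2 days, 0 of 8 genes differed by limma with what the other eye had received, and 0% of all 18702 genes tested were called (665 at an unadjusted p below 0.05). At an unadjusted p below 0.05 limma gave 1 of the 8, Stat3, DESeq2 2 and edgeR 3. All 8 genes were lower in the 8 PBS eyes opposite TNF than in the 7 opposite IL1A. These differences ran from -0.08 for Lifr to -0.64 for Socs3 and -0.93 for Lif (log2). So few eyes leave differences of this size undecided, and the part of the other eye in the day differences was not tested.

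Socs3 fell furthest, from 6.41 to 67.9 CPM at 2 days (median 23.2) to 4.47 to 9.87 CPM at 14 days (median 5.28) and 2.82 to 3.82 CPM at 35 days (median 3.02). Of the 7 retinas at 14 days, 5 were below the range at 2 days, and all 6 at 35 days were. Its differences from 2 days were -1.91 ± 0.36 at 14 days and -2.78 ± 0.47 at 35 days (log2, SE, limma FDR = 1.45e-04 and 1.16e-05). Stat3 was at 88.1 to 124 CPM at 14 days (median 92.5) and 64.4 to 75.4 CPM at 35 days (median 74.1), both wholly below the range at 2 days. It differed by -1.08 ± 0.10 and -1.49 ± 0.11 (limma FDR = 1.80e-09 and 9.82e-14). Osmr was at 14.5 to 22.7 CPM at 14 days and 8.84 to 12.4 CPM at 35 days, with all retinas at 35 days below the range at 2 days, and differed by -1.20 ± 0.17 and -1.96 ± 0.21 (limma FDR = 1.80e-06 and 2.06e-09). Osmr, Stat3 and Socs3 were the 3 of 10 genes with no overlap between 35 and 2 days in this direction, which held for 4.02% of all genes.

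Lif was at 0.519 to 1.32 CPM at 14 days and 0.236 to 1.11 CPM at 35 days, a difference from 2 days of -1.83 ± 0.51 and -2.41 ± 0.63 (log2, SE, limma FDR = 0.00824 and 0.00237). At 35 days, 4 of its 6 retinas were below the range at 2 days. Il6ra fell by 1.27 and 1.45 and Il6st by 0.49 and 0.55 on the log2 scale at 14 and 35 days (limma FDR of at most 3.09e-04). Lifr was at 140 to 165 CPM at 35 days, inside its range at 2 days, and its difference was -0.01 ± 0.05. Blood cell markers were also lower later: neutrophil markers summed to 1.16 to 3.15 CPM at 14 days and 1.34 to 1.68 CPM at 35 days, with Ly6g at 0 in all 13 retinas, and monocyte markers to 11.1 to 28.2 and 4.32 to 8.78 CPM. The 8 microglial markers were all lower later, beside 36.2% of all genes called over days. They summed to 39.9 to 48.8 CPM at 35 days against 76.1 to 135 CPM at 2 days. The part of these blood cell and microglial markers was not tested.

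TNF alone was also followed to 14 and 35 days. Of the 7 genes tested, 0 differed from PBS at either time, and 0% of all genes were called at each (limma; 838 and 871 genes at an unadjusted p below 0.05). By edgeR 476 and 747 genes and by DESeq2 472 and 746 genes passed at an unadjusted p below 0.05. Of the 7, limma gave 1 at 14 days and 2 at 35 days at an unadjusted p below 0.05, and edgeR and DESeq2 each gave 0 and 2. The smallest p was that of Osmr at 35 days. It was at 10.3 to 16.6 CPM after TNF (median 13.8) and 8.84 to 12.4 CPM after PBS (median 10.3), with 6 of 9 TNF retinas above the PBS range and a difference of 0.34 ± 0.09 (log2, SE, limma FDR = 0.889). At 14 days TNF replicate 4 had the highest Socs3 (15.4 CPM), Stat3 (153 CPM), Osmr (44.7 CPM) and Il6ra (1.76 CPM) of the 13 retinas.

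IL1A+TNF was tested again in batch 2, in WT and in Sarm1KO retinas. With both batches in the fit and batch as a term (81 retinas), 7 of 10 genes were higher and 0 lower in WT (54.8% of all genes called); this fit includes the batch 1 retinas. In Sarm1KO, 8 of 10 were higher and 0 lower (43.5% called): Il6ra by 2.28 ± 0.31 (log2, SE), Osm by 1.76 ± 0.54, Socs3 by 1.38 ± 0.36, Lif by 1.25 ± 0.47, Osmr by 0.82 ± 0.21, Stat3 by 0.81 ± 0.17, Il6st by 0.38 ± 0.13 and Lifr by 0.33 ± 0.08 (limma FDR of at most 0.0244). Without Sarm1KO IL1A+TNF replicates 4 and 5, chosen after their RGC markers had been seen, 2 of 10 genes were called, Il6ra (1.83) and Stat3 (0.54, limma FDR = 0.0422), with Socs3 at 0.86 (FDR = 0.125) and Lif at 0.24 (FDR = 0.782). That fit has fewer retinas, and its share of all genes called is not reported here. Leaving out single retinas gave 6 to 8, with Lif and Il6st the calls that were lost, and leaving out Sarm1KO PBS replicate 1 or 2 kept 8. Within batch 2 alone, 5 genes were higher in WT (20.9% called), Osm, Il6ra, Il6st, Stat3 and Socs3. Osm, Il6ra, Osmr, Il6st and Stat3 were higher in every WT IL1A+TNF retina than in every WT PBS retina of that batch, which held for 15.7% of all genes. In Sarm1KO, batch 2 alone called 6 genes, Osm, Il6ra, Osmr, Lifr, Stat3 and Socs3 (30.8% of all genes called). All 10 genes overlapped between IL1A+TNF and PBS retinas of Sarm1KO, and the share of all genes that did is not reported here. Of the 6 Sarm1KO mice, the treated eye was higher in 6 for Il6ra, Lifr and Stat3, in 5 for Osm, in 4 for Osmr, Il6st and Socs3 and in 3 for Lif. For Osmr, Il6st and Socs3 the exceptions were the mice of Sarm1KO PBS replicates 1 and 2, the PBS eyes with high neutrophil markers. Their Socs3 was at 38.3 and 46.4 CPM in the treated eyes and at 46.8 and 49.8 CPM in the PBS eyes. The part of these PBS eyes was not tested.

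The genotypes were then compared directly. After PBS, 0 of 10 genes differed between Sarm1KO and WT by limma (0.0397% of all genes called), and after IL1A+TNF 0 of 10 did (14.8% called). At an unadjusted p below 0.05, limma gave 1 gene in each, and edgeR and DESeq2 0 after PBS. In the limma test of whether the treatment effect differed by genotype, 0 of 10 passed (8.75% called), with 0 at an unadjusted p below 0.05 by limma and 1, Lif, by edgeR and by DESeq2. For Socs3 the genotype difference after IL1A+TNF was 0.00 ± 0.32 (log2, SE), with a 95% interval from -0.64 to 0.63, and for Il6ra it was -0.17 ± 0.23, with an interval from -0.64 to 0.29. Lif had the smallest p after IL1A+TNF, higher in Sarm1KO by 1.03 ± 0.41, and did not pass (limma FDR = 0.0738). It was called by edgeR (1.66, FDR = 0.0136) and by DESeq2 (1.65, FDR = 0.00773), and by limma when Sarm1KO IL1A+TNF replicate 1, 2 or 6 was left out. Without Sarm1KO IL1A+TNF replicates 4 and 5 it was 0.03 (limma FDR = 0.979).

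Retinas of the Sarm1KO IL1A+TNF group differed widely in Lif and Socs3. Lif was at 3.83, 3.39, 15.8, 40.7, 52.5 and 7.02 CPM in replicates 1 to 6. The 40.7 and 52.5 CPM were the highest of all 109 retinas, above the 13.3 CPM of the highest WT retina. Socs3 was at 38.3, 46.4, 139, 159, 175 and 37.4 CPM in the same replicates, so the same 3 retinas were high. Their RGC markers summed to 690, 666, 329, 113, 94.9 and 606 CPM and their neutrophil markers to 102, 236, 354, 697, 648 and 138 CPM. The 3 retinas with most Lif were those with the lowest RGC and the highest neutrophil markers of the group. They also had the lowest Müller glia sums, 2273, 1458 and 1882 CPM in replicates 3, 4 and 5 against 2866 to 3366 CPM in the others. Endothelial and pericyte markers summed to 284 and 212 CPM in replicates 4 and 5 and to 522 to 599 CPM in the other 4. Rod markers summed to 20080, 26672 and 23351 CPM in replicates 3, 4 and 5 and to 31044 to 40116 CPM in the others. WT IL1A+TNF replicate 1 of batch 2 had neutrophil markers at 701 CPM, RGC markers at 532 CPM and Lif at 10.6 CPM. Replicate 3 of that WT group had 463, 372 and 8.46 CPM in the same order. Lif in the 6 WT IL1A+TNF retinas of that batch was at 3.26 to 10.6 CPM, and in the 5 WT PBS retinas at 4.36, 2.29, 4.41, 1.70 and 9.05 CPM. The part of these markers was not tested.

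**Figure D4:**
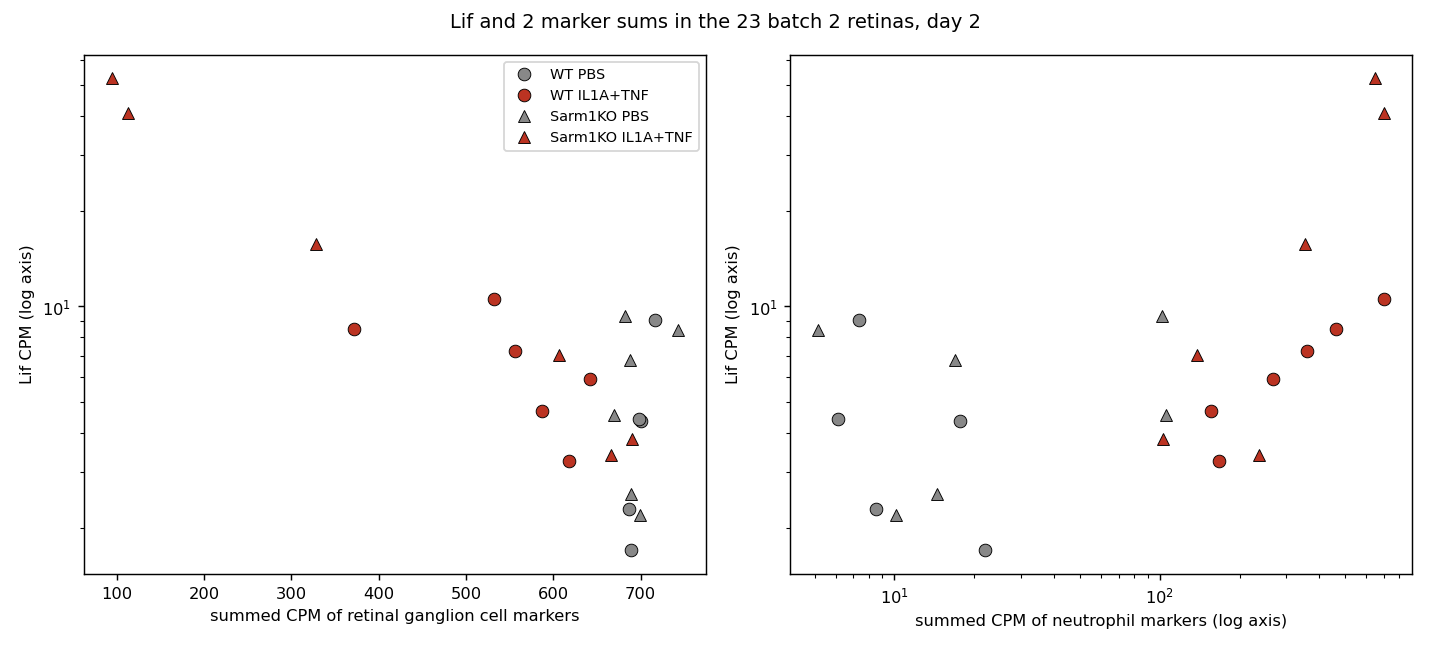
Lif in CPM (log axis) against the summed CPM of RGC markers and of neutrophil markers in the 23 retinas of batch 2, by genotype and treatment. The Sarm1KO IL1A+TNF retinas with Lif at 40.7 and 52.5 CPM have the lowest RGC sums, 113 and 94.9 CPM.

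Among PBS retinas, Socs3, Stat3, Osmr, Lif and Il6st varied together between mice. Across the 31 PBS retinas at 2 days, each from a different mouse, log2 Socs3 correlated with Stat3 (Pearson r = 0.891, Spearman rho = 0.907), Osmr (0.883 and 0.860), Lif (0.821 and 0.828) and Il6st (0.772 and 0.741). Leaving out the 2 retinas farthest from the median of the gene paired with Socs3 gave r of 0.849, 0.848, 0.818 and 0.735. Distance from the median of Socs3 itself was not used for these 4 pairs. Lifr had r = 0.206 with Socs3, and Lif had r = 0.176 with Il6ra. These values are descriptions over retinas that share library preparation and an injection each. Il6ra went less with Socs3 (r = 0.485) and more with the neutrophil sum (r = 0.744) and the monocyte sum (r = 0.728). It also had r = 0.654 with the astrocyte, 0.644 with the microglial and 0.640 with the endothelial and pericyte sum. The microglial and monocyte sums had r = 0.919. Lif had r = 0.119 with the neutrophil sum, -0.0920 with the monocyte sum and -0.637 with the sum of 8 Müller glia markers. With that Müller sum, Stat3 had r = -0.665, Lifr -0.566, Socs3 -0.484, Il6st -0.441, Osmr -0.441 and Il6ra 0.049. For Socs3 and the neutrophil sum r was 0.488, and 0.316 without the 2 retinas farthest from the median of Socs3.

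The genes whose pattern over the 58 retinas at 2 days was most like each member were found by Pearson correlation of log2 CPM over 15130 genes. For Il6ra these were Plcg2, Itgam and Lcp1 (r = 0.973, 0.973 and 0.971), all known from leukocytes. After removing group means r was still 0.906 for Plcg2 and 0.907 for Itgam. Blood-derived cells and microglia were not told apart by this. For Osmr they were Fosl2, an AP-1 subunit (r = 0.936), Acvr1 (0.922) and Pdpn (0.919). For Lif they were Tnfrsf12a, the receptor of TWEAK (0.790), Map3k14 (0.770) and Slc1a4 (0.769). Stat3 was most like Jak3 (0.971), Agtpbp1 (0.962) and Skap2 (0.959), and Socs3 like Bcl6 (0.953), Tirap (0.952) and Myd88 (0.952). Il6st went with Wwtr1 (0.954), Map3k1 (0.951) and Impg2 (0.950), and Lifr with Ttll5 (0.901), C2cd3 (0.893) and Pkd1 (0.883).

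Of 10 JAK and STAT genes other than Stat3, IL1A+TNF raised 8 and lowered 0, IL1A likewise raised 8 and lowered 0, and TNF gave 0 calls, where 50.4%, 21.4% and 0.655% of all genes were called. Their median difference after IL1A+TNF was 0.76 (log2), against -0.02 over all genes. Stat2, a factor of interferon signalling, rose by 1.89 ± 0.20 (log2, SE, limma FDR = 3.02e-12), Stat6, which acts downstream of IL4 receptor signalling, by 0.93 ± 0.10 and the kinase gene Jak2 by 0.33 ± 0.03. Of 15 inhibitors of JAK and STAT signalling, 6 were higher and 3 lower after IL1A+TNF, with a median of 0.04, a share called near that of all genes. Among them, 4 of 7 other SOCS family genes were higher. The phosphatase gene Ptpn6, found in blood cells, rose by 2.61 ± 0.18 and Ptpn1, another phosphatase gene, by 0.84 ± 0.08. Pias3, which encodes an inhibitor that binds STAT3, fell by 0.49 on the log2 scale, and Pias1, of the same family, by 0.18.

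Other gp130 family ligands and receptors were divided. With IL1A+TNF, 4 of the 11 that passed the filter were called higher and 4 lower, with a median of -0.10, and of all genes 4874 were higher and 4978 lower of 19548. Clcf1, which encodes a ligand of the CNTF receptor, rose by 0.85 ± 0.14, Ebi3 by 0.77 ± 0.14 and Il27, its partner in IL-27, by 1.35 ± 0.28 (log2, SE), and Ctf1, which encodes cardiotrophin 1, fell by 0.52 (limma FDR = 2.55e-05). Cntf, encoding ciliary neurotrophic factor, was at -0.15 ± 0.23 (limma FDR = 0.600) and Il31ra at -0.25 (limma FDR = 0.411). Il27ra, which encodes the receptor of IL-27, rose by 1.16, while Ctf2, Cntfr and Il11ra1 fell by 0.44, 0.34 and 0.10. After IL1A 4 of the 11 were higher and 1 lower, and after TNF 0 were called.

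Of 24 tested genes listed as STAT3 targets, IL1A+TNF raised 18 and lowered 0, IL1A raised 14 and lowered 0, and TNF gave 0 calls, beside the same shares of all genes (50.4%, 21.4% and 0.655%). The median difference of the list after IL1A+TNF was 1.07 (log2), against -0.02 over all genes. Il4ra rose by 1.75 ± 0.14, Bcl3 by 2.08 ± 0.20, Mcl1, a survival factor, by 0.65 ± 0.06 and Gfap, the intermediate filament of reactive glia, by 1.44 ± 0.16 (log2, SE, limma FDR of at most 1.15e-11). Named here after their values were seen, Serpina3n and A2m, acute phase genes, did not pass, with Serpina3n at 0.18 ± 0.37 (limma FDR = 0.705) and A2m at 0.29 ± 0.24 (limma FDR = 0.315). Over days after PBS, 19 of the 24 were lower later and 0 higher (36.2% of all genes called), among them Serpina3n (-5.87), Lcn2 (-5.05), Timp1 (-3.48), A2m (-3.02) and Gfap (-2.53), as the largest day difference from limma on the log2 scale, also named after their values were seen. Lcn2 was at 27.6 to 412 CPM in PBS retinas at 2 days and 3.29 to 8.59 CPM at 14 days. All 5 genes listed for the retinal response to LIF were higher after IL1A+TNF, with Gfap and Fgf2 (1.31 ± 0.15), Edn2 (1.36 ± 0.18) and Ednrb (1.43 ± 0.22) among them, and 3 of the 5 were lower later after PBS. Gfap and Bcl2l1 are on both lists. In Sarm1KO, 16 of the STAT3 target list were higher and 1 lower after IL1A+TNF (43.5% of all genes called). Many of these genes also respond to NF-kB and to interferon, and several are made by blood cells as well as glia, so the lists are not readouts of STAT3 alone.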

How the data were processed

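Whole-retina polyadenylated RNA was sequenced, and per the labels and the study's methods reads were aligned with STAR (2.7.9a) to mm10 and assigned to genes with featureCounts of Subread (2.0.1). The authors deposited raw counts per gene and retina, not normalized, in 1 table, and 0 of its columns belonged to no listed sample. Groups, mouse, sex and batch came from the labels. Counts depend on the annotation, on uniquely assigned reads and on depth, so low genes (Il6, Osm, Il11) carry counting error.

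Genes were kept by filterByExpr (minimum count 10, minimum total 15, large n 10), scaled by TMM and fitted with limma-voom (limma 3.58.1, edgeR 4.0.16, R 4.3.3) with sex as a term, the mouse as a random block except in the fits of PBS retinas alone, and batch where both batches entered. FDR (Benjamini-Hochberg, below 0.05) covered all genes tested. The members and lists were chosen with earlier results of these data known. Named were the 10 members, up to 4 genes of each other list with the smallest FDR after IL1A+TNF at 2 days, all filtered genes of the other gp130 family list, and for each member of at least 1 CPM the 3 genes most like it. Some genes of these lists are not reported here by name. Over 45 mice the deviations of both eyes correlated at -0.321 to 0.600 (median 0.209, 15134 genes). The pairing comes from the mouse in the labels. No libraries of a group were duplicates (716 pairs). Alternatives were edgeR quasi-likelihood, DESeq2 (1.42.0), other filters and scalings, no block, mouse as a fixed term and leaving out retinas. The script was tested on simulated data. CPM and log2 correlations used library totals and a prior count of 2.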

Additional observations from a re-analysis of the deposited data

Results flagged for a closer look

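Of 110 sets of retinas of 1 group and gene that could be tested, 16 held a retina far from the rest by Dixon's test, where chance gives about 1 in 20. In TNF retinas at 14 days, replicate 4 was the highest for Il6ra (1.76 CPM), Stat3 (153 CPM) and Socs3 (15.4 CPM), and replicate 2 was the lowest for Lifr (138 CPM). In PBS retinas at 14 days, replicate 5 was the lowest for Il6ra (0.358 CPM) and the highest for Socs3 (9.87 CPM). At 35 days, Socs3 was highest in PBS replicate 6 (3.82 CPM) and Lif in TNF replicate 1 (1.65 CPM). Further sets of very low counts were set apart by a retina with Il6 at 0.0235 CPM (PBS replicate 1 at 35 days, 1 count), Il6 at 0.0540 CPM (TNF replicate 5 at 35 days) and Osm at 0.0546 CPM (TNF replicate 9 at 35 days).

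At 2 days, Socs3 stood at 115 CPM in IL1A replicate 8, Il6ra at 25.1 CPM in IL1A+TNF replicate 2, Il6 at 0.374 CPM in IL1A+TNF replicate 1 and Il11 at 1.23 CPM in TNF replicate 2, each the highest of its group. In batch 2, Osmr stood at 118 CPM in WT IL1A+TNF replicate 1. The effect of TNF on Il6st differed with IL1A, by the interaction of 0.41 on the log2 scale (limma FDR = 0.0498). That call sat at the threshold.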

How the results depend on the processing

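Counts of called genes among the 10 kept their direction in every setting run. Shares of all genes called in the alternative settings are not reported here, so these counts stand without them. With each mouse as a fixed replicate block, IL1A called 1 gene in place of 5, IL1A+TNF 6 in place of 7 and TNF 0, and Socs3 after TNF reversed from -0.34 to 0.021 on the log2 scale. That fit uses fewer degrees of freedom, and its effect on the IL1A calls was not tested further. Leaving the random block out changed no count by over 1.5 times. By DESeq2 and by edgeR, TNF at 2 days called 1 gene (Il6ra), the interaction 3, and Sarm1KO against WT after IL1A+TNF 1 (Lif), and with no filter on low counts the interaction called 0. The cause was not tested. Leaving out single retinas in turn (each treated retina in batch 1, each retina of batch 2 in the fits over both batches, each WT IL1A+TNF retina for batch 2 alone) gave 7 to 8 genes for IL1A+TNF, 4 to 6 for IL1A, 0 to 1 for TNF, 7 to 8 for WT and 6 to 8 for Sarm1KO over both batches, 4 to 6 for WT in batch 2 alone, 0 to 1 for Sarm1KO against WT after IL1A+TNF, and 0 for TNF at 14 and 35 days. Lif after IL1A+TNF gained its call without IL1A+TNF replicate 4, 7 or 9 or PBS replicate 26, and Il6st after IL1A lost its own without IL1A replicate 1, 2, 4 or 8, while Osm gained one without IL1A replicate 5 or PBS replicate 26. In Sarm1KO, Lif and Il6st lost their calls without IL1A+TNF replicate 4 or 5 or PBS replicate 3 or 4. In WT of batch 2 alone, Il6st lost its call without IL1A+TNF replicate 1 or 3 and Osmr gained one without replicate 5, and over both batches Il6 gained one in WT without WT PBS replicate 4 or Sarm1KO PBS replicate 6. Without the 2 Sarm1KO IL1A+TNF retinas of lowest RGC markers, left out after the data were seen, Sarm1KO called 2 in place of 8, with fewer samples. Single days after PBS and PBS replicate 26 were also added after the data were seen. Single-gene values, of called genes and some chosen others, were counted together with the counts of mice whose treated eye was higher. Of these, 1123 kept their direction and side of the threshold or, for mice, their count. In single genes 32 values lost the call and 17 gained it. Low counts of Il6, Osm and Il11 limit what could be detected for these ligands, and retinas differ in depth by batch.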
